A study of Mus musculus with 28 samples.

Results

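Epidermal stem cells sorted from 12 h wounds of mouse skin were compared between mice that had earlier been treated with imiquimod and mice that had received the control cream. The comparison rests on 4 RNA-seq libraries, 2 titled as post-imiquimod and 2 titled as control at 12 h of wounding, of 16 RNA libraries among the 28 samples of the series. They were chosen by these titles alone, and all 17299 genes that passed a filter on low counts were tested. The mice were C57BL/6, labelled female, and were treated for 6 days from postnatal day 60, either with imiquimod, an agonist of Toll-like receptor 7 that provokes psoriasis-like inflammation, or with vanicream. Wounds were made at day 30 and taken 6 h or 12 h later, and unwounded skin of both treatments was taken at day 6 and at day 30. All groups were sorted as integrin α6-positive, integrin β1-positive, Sca1-positive and CD34-negative cells. The study asks whether skin that has recovered from inflammation keeps a memory of it in its epidermal stem cells and responds differently to a wound. The labels do not say that replicates came from separate mice, so p-values measure the spread between these libraries, which may be technical.

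The basal layer of the epidermis holds the stem cells that divide, migrate into wounds and give rise to the barrier. These cells also sense damage. AIM2 binds DNA in the cytosol and can assemble an inflammasome, in which caspase-1 becomes active and matures interleukin-1β and interleukin-18. Calprotectin, antimicrobial peptides and small proline-rich proteins are products of keratinocytes in inflamed or wounded skin.

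The 4 libraries held 36935019 counts (control replicate 1), 70452325 (control replicate 2), 40674917 (imiquimod replicate 1) and 70709213 (imiquimod replicate 2), and mitochondrially encoded transcripts took 1.42% to 1.72% of them. Of the genes of the sort, Itga6 was at 1385 to 1710 CPM (counts per 1000000, with library sizes scaled by TMM) and Cd34 at 0.330 to 0.907 CPM. Ly6a, the gene of Sca1, stood at 604 and 570 CPM in control (replicates 1 and 2) and at 919 and 684 CPM after imiquimod. Its log2 change was 0.43 with an SE of 0.15 (adjusted p = 0.616 by edgeR). The basal keratin gene Krt5 was at 19169 to 24781 CPM. Hair shaft keratins stood apart in control replicate 1, where Krt35 was at 2.46 CPM against at most 0.0138 CPM in the other 3 libraries. Malat1, a nuclear noncoding RNA, was at 445 CPM in the same library, at 249.6 CPM in control replicate 2 and at 208 and 231 CPM after imiquimod. The median of the 6 nuclear long noncoding RNAs tested was -0.78 in pair 1 and 0.06 in pair 2, and the part of this difference in other results was not tested. Of the day 30 libraries, which enter the fit but not the 12 h contrast, 2 (replicate 1 of each treatment) held 6023 and 7830 reads of Y-linked genes although labelled female. No 12 h library held more than 2 such reads. Results without the day 30 libraries are given where a gene past the threshold is lost. In that fit 3 named genes that had not passed did so, of which Il18 is given below.

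Post-imiquimod cells in 12 h wounds had more RNA for calprotectin, AIM2, caspase-1, caspase-4, G-CSF and a class II MHC chain, and less for the calmodulin-like gene Calm5, the Skint family gene Skint7 and the clock-output gene Tef. By edgeR's quasi-likelihood test with replicate number as a block, 20 of 17299 genes (0.116%) passed an adjusted p of 0.05, 13 higher (0.0751%) and 7 lower (0.0405%). At an unadjusted p under 0.05 there were 1234 genes (7.13%), 608 higher (3.51%) and 626 lower (3.62%), and the median log2 change of all genes was 0. Without the block edgeR called 0 genes (0%), with 425 (2.46%) at an unadjusted p under 0.05. DESeq2 with the block called 94 genes, 19 of the 20 among them. Leaving out any 1 of the 4 libraries leaves a single pair in the blocked contrast, and 0 to 2 genes then passed. All 20 genes kept their sign in each of the 14 other settings tried. These settings refit the same libraries, whose groups did not overlap for any of the 20, so this is no separate support. With 2 libraries against 2, an exact permutation test of a single gene that ignores the pairs cannot go below p = 0.333. Swaps within pairs allow fewer arrangements still, so every call here rests on the model fitted across genes.

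**Figure D1:**
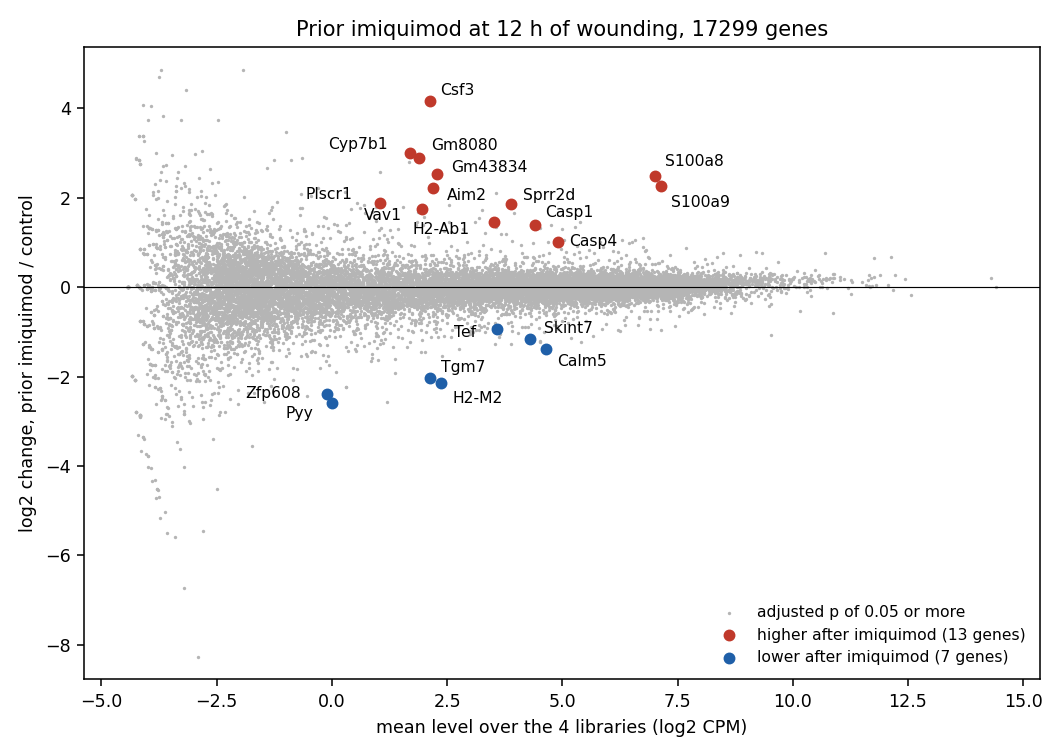
Log2 change after prior imiquimod (y axis) against the mean level in log2 CPM (x axis) for the 17299 genes tested at 12 h; each point is a gene, and those past an adjusted p of 0.05 are red (13 higher) or blue (7 lower). Csf3 has the largest change of the named points at 4.17, and S100a8 and S100a9 have the highest levels among the 13 higher genes.

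The calprotectin genes had the smallest p-values among the genes that rose. S100a8 stood at 54.5 and 54.6 CPM in the control libraries (replicates 1 and 2, the order used throughout) and at 326 and 287 CPM after imiquimod. Both post-imiquimod libraries lay above both controls, and S100a8 rose by 2.49 ± 0.20 on the log2 scale (SE, adjusted p = 0.00869). S100a9, which encodes the partner subunit, stood at 67.0 and 62.5 CPM in control and at 335 and 289 CPM after imiquimod. The groups again did not overlap, and S100a9 rose by 2.27 ± 0.20 (adjusted p = 0.00869). In GRCm38 both lie on chromosome 3, S100a8 (ENSMUSG00000056054.9) at 90669071 to 90670034 and S100a9 (ENSMUSG00000056071.12) at 90692630 to 90695721. Counts were made per gene, so no value is tied to an exon or a UTR.

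The promoter windows of the pair are shown because the neighbouring genes moved together. RefSeq windows (GRCm38.p6) run from 250 bases before to 50 bases after the annotated start, 5′ to 3′ on the gene's strand, and were found for 14 of the 20 genes, in 17 windows. Capitals mark matches, on either strand, to an AP-1 motif (TGANTCA), a STAT motif (TTCNNNGAA) or an NF-kB motif (GGG, any 2 bases, then TTTCC), and no printed match overlaps another. S100a8 is chr3:90668821-90669120 on the plus strand and S100a9 is chr3:90695672-90695971 on the minus strand.
S100a8: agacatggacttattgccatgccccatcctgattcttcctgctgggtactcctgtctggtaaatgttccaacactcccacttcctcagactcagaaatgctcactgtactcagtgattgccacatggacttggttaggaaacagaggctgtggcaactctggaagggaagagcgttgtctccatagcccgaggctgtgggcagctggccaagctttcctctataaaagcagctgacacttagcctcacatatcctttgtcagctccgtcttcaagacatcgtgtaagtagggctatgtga
S100a9: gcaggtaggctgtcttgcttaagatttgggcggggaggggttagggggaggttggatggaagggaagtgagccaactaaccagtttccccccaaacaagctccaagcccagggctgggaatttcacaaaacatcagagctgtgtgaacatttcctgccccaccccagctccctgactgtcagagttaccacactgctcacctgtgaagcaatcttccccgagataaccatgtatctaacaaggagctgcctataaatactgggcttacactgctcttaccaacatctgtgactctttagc
Neither window holds any of the 3 motifs, which says only that these letters are absent from these bases. Over all 32851 windows of this length the AP-1 motif was found in 7.81%, the STAT motif in 8.30% and the NF-kB motif in 1.63%. Over the 14617 windows of tested genes the shares were, in that order, 5.84%, 6.89% and 1.7%.

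Neutrophils carry calprotectin in bulk, so their markers are given beside it. Of 12 neutrophil markers 4 were tested: S100a8, S100a9, the chemokine receptor gene Cxcr2 and the G-CSF receptor gene Csf3r. Csf3r had no read in any of the 4 libraries. Cxcr2 stood at 119.9 and 120.3 CPM in control and at 166 and 140.2 CPM after imiquimod (0.35 ± 0.68, adjusted p = 0.942). The summed level of the list was 241 and 237 CPM in control and 827 and 716 CPM after imiquimod. This sum includes S100a8 and S100a9 themselves, so its rise is not separate from theirs. The pan-leukocyte gene Ptprc was at 0.0259 and 0.110 CPM in control and at 0.0980 and 0.143 CPM after imiquimod. In bulk samples a change in the number of cells of a type cannot be told apart from a change in RNA per cell.

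In the list of alarmins and antimicrobial proteins 2 of 27 tested genes passed, both of them the calprotectin genes, 23 had a positive value and the median log2 change was 0.70 (0.61 in pair 1, 0.70 in pair 2) against 0 for all genes. At an unadjusted p under 0.05, 7 were higher and 2 lower (33.3% of the list, against 7.13% of all genes). Lcn2, whose product withholds iron from bacteria, stood at 64.2 and 63.4 CPM in control and at 147.9 and 112 CPM after imiquimod. Its groups did not overlap, and its log2 value of 1.01 ± 0.15 missed the threshold (adjusted p = 0.0574). The defensin gene Defb3 had 2.13 ± 0.44 and the antiprotease gene Slpi 0.80 ± 0.27, neither past the threshold. Mt4, a metallothionein gene of stratified epithelia, had -0.87 ± 0.21 and the serum amyloid gene Saa3 -1.39 ± 0.45, also without passing.

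Of the genes of cytosolic sensing 3 rose. Aim2 (ENSMUSG00000037860.15, chromosome 1, 173349547 to 173466040) stood at 2.46 and 1.79 CPM in control and at 11.7 and 8.20 CPM after imiquimod. The lower post-imiquimod library was well above the higher control, and Aim2 rose by 2.22 ± 0.21 (log2, SE, adjusted p = 0.00944). Casp1, the inflammasome protease gene, stood at 16.7 and 10.2 CPM in control and at 38.4 and 30.8 CPM after imiquimod. It rose by 1.40 ± 0.13 (adjusted p = 0.00944), with no overlap. Casp4, whose product binds lipopolysaccharide in the cytosol, stood at 23.0 and 19.0 CPM in control and at 47.4 and 37.5 CPM after imiquimod. Casp4 rose by 1.01 ± 0.12 (adjusted p = 0.0214), and again the groups did not overlap. Casp1 (ENSMUSG00000025888.5, 5298517 to 5307281) and Casp4 (ENSMUSG00000033538.13, 5308849 to 5336791) are neighbours on chromosome 9. Aim2 overlaps Cadm3, and without a stated strand the reads of overlapping genes cannot be told apart.

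The windows of these 3 sensing genes are shown because the RNA of each rose. They are Aim2 at chr1:173420354-173420653, Casp1 at chr9:5298267-5298566 and Casp4 at chr9:5308599-5308898, all on the plus strand. The Aim2 window lies inside the gene span given above, so its annotated start is not the first base of that span. Those of Casp1 and Casp4 do sit at the first base of theirs.
Aim2: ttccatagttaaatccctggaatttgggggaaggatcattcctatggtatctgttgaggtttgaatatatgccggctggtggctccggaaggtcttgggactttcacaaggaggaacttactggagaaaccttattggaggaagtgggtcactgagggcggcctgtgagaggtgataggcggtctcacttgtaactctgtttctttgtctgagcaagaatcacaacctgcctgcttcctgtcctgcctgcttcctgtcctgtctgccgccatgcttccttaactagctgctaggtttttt
Casp1: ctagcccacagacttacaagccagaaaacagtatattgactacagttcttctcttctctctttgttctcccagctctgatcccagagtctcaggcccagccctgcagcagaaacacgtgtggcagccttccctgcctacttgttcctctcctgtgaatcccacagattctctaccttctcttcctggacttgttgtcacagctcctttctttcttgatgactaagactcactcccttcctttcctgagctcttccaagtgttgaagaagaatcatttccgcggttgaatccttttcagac
Casp4: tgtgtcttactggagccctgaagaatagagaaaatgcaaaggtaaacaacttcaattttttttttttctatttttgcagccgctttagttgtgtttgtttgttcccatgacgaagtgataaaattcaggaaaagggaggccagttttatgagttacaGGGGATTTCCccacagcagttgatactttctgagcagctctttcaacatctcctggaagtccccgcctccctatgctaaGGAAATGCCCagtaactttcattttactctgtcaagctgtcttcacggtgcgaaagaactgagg
The Casp4 window holds NF-kB matches that begin 93 and 14 bases before the start. Aim2 and Casp1 hold none of the 3 motifs. Casp4 was the 1 gene of the 14 with an NF-kB match, a description of letters and not of binding. A STAT match was found for 2 of the 14, Tgm7 and Plscr1, whose windows are not shown.

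Of 18 tested genes in the list of inflammasome components and AIM2-like sensors these 3 passed, all higher, and the median log2 change was 0.12. At an unadjusted p under 0.05, 4 were higher and 1 lower (27.8%, against 7.13% of all genes). The fourth was Il18, the cytokine gene of the interleukin-1 family whose product caspase-1 matures, at 1.24 and 1.14 CPM in control and at 7.96 and 8.51 CPM after imiquimod. The groups did not overlap, and its log2 value of 2.79 ± 0.41 missed the threshold (adjusted p = 0.0602), which it passed without the day 30 libraries. Il18 overlaps Bco2 and Tex12. Nlrp1b, another sensor gene, stood at 1.01 and 0.551 CPM in control and at 0.147 and 0.157 CPM after imiquimod (-2.22 ± 0.49, adjusted p = 0.300). The adaptor gene Pycard had 0.09 ± 0.16 and the pore gene Gsdmd 0.22 ± 0.33.

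The ligands of the acute interleukin-1 response did not pass. Il1b stood at 1.30 and 0.798 CPM in control and at 0.441 and 0.844 CPM after imiquimod, with overlap between the groups (-0.64 ± 0.52, adjusted p = 0.842). Il1a, stored in keratinocytes as an alarm signal, had -0.12 ± 0.36. The signs of both turned to positive without replicate 1 of either group. Of 23 tested genes of the interleukin-1 family none passed by edgeR, and the median was 0.09. At an unadjusted p under 0.05, 4 were higher and 0 lower (17.4%, against 7.13% of all genes). Those 4 were Il18, the interleukin-36 genes Il1f6 (1.36 ± 0.47) and Il1f9 (0.66 ± 0.28) and the adaptor gene Myd88 (0.24 ± 0.10).

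Csf3, which encodes the neutrophil growth factor G-CSF, had the largest change of the 20. It stood at 1.24 and 0.840 CPM in control and at 13.2 and 24.5 CPM after imiquimod. Csf3 rose by 4.17 ± 0.40 (adjusted p = 0.0187), by 3.36 in pair 1 and by 4.79 in pair 2. It did not pass in a fit of the 4 compared libraries alone. Csf3 (ENSMUSG00000038067.2, chromosome 11, 98700183 to 98703631) overlaps the predicted gene Gm38985. It was the 1 gene of 17 tested in the list of the interleukin-17 response and the interleukin-20 subfamily to pass, with a list median of 0.11. Il19, a cytokine gene of that subfamily, had 1.83 ± 0.45 (adjusted p = 0.437).

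Chemokine genes did not pass. Of 18 tested, 3 were higher and 1 lower at an unadjusted p under 0.05 (22.2%, against 7.13% of all genes). The median was 0.04. Cxcl1, a neutrophil attractant gene, stood at 31.2 and 26.5 CPM in control and at 53.1 and 56.2 CPM after imiquimod, with no overlap (0.93 ± 0.16, adjusted p = 0.112). The monocyte attractant gene Ccl7 had 1.31 ± 0.33, the interferon-induced Cxcl9 1.00 ± 0.30 and the epidermal Cxcl14 -0.46 ± 0.17. Of 24 NF-kB and TNF targets 3 were higher and 3 lower at that level (25%), and of 13 AP-1 and Atf factor genes 0 were (0%). Their medians were 0.03 and -0.07.

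An envelope gene of stressed epidermis also rose. Sprr2d, which encodes a small proline-rich protein of the cornified envelope, stood at 8.09 and 7.50 CPM in control and at 26.6 and 30.03 CPM after imiquimod. The groups did not overlap, and Sprr2d rose by 1.86 ± 0.21 (adjusted p = 0.0214). Its window (chr3:92338890-92339189, plus strand) is shown as the 1 of the 14 with an AP-1 match, which begins 193 bases before the start.
Sprr2d: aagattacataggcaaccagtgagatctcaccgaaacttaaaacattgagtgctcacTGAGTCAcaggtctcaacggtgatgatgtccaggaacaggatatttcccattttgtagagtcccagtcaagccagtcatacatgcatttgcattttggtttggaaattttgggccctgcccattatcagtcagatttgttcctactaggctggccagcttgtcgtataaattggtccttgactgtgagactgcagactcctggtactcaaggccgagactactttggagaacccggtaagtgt
Of 32 tested stress keratin and envelope genes Sprr2d was the 1 to pass. At an unadjusted p under 0.05, 6 were higher and 1 lower (21.9%, against 7.13% of all genes). The median was 0.21 (0.19 in pair 1, 0.32 in pair 2). With each of the 4 libraries left out in turn the median was 0.20 to 0.47. The lower gene was Krt77, a suprabasal keratin gene, at 1145 and 996 CPM in control and at 463 and 561 CPM after imiquimod (-1.07 ± 0.29, adjusted p = 0.452). Sprr2i had 2.58 ± 0.44, Sprr2e 1.67 ± 0.44 and the crosslinking enzyme gene Tgm3 1.00 ± 0.39. The protease inhibitor genes Serpinb3a and Serpinb3b had 2.04 ± 0.37 and 1.47 ± 0.30. Sprr2 and Serpinb3 genes have near-identical copies, so their values are uncertain where the counting could split reads between copies.

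Wound keratins were abundant in both groups. Krt6a stood at 3827 and 3347 CPM in control and at 5119 and 6389 CPM after imiquimod, against 55.1 and 18.9 CPM in unwounded control skin at day 30. Both post-imiquimod libraries were above both controls at 12 h, with a log2 difference of 0.42 in pair 1 and 0.93 in pair 2. The SE, taken from the fit over all 16 libraries, exceeded the difference (0.68 ± 1.14, adjusted p = 0.933). It does not measure the spread at 12 h alone, and the day 6 control replicates of Krt6a stood at 231 and 6.49 CPM. Krt16, the partner of Krt6a, had 0.65 ± 0.93 and Krt17 0.27 ± 0.21. The basal keratins Krt5 (0.01 ± 0.23) and Krt14 (0.20 ± 0.27), the suprabasal Krt10 (-0.14 ± 0.26), the signal transducer gene Stat3 (0.22 ± 0.11) and the AP-1 gene Fosl1 (-0.12 ± 0.56) did not pass either.

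H2-Ab1, the β chain gene of an MHC class II molecule, stood at 7.52 and 6.30 CPM in control and at 20.4 and 17.4 CPM after imiquimod. The groups did not overlap, and H2-Ab1 (ENSMUSG00000073421.5, chromosome 17, 34263227 to 34269418) rose by 1.45 ± 0.20 (adjusted p = 0.0439). It did not pass without the day 30 libraries or without mitochondrially encoded transcripts in the library totals. In the list of MHC and interferon gamma genes it was the 1 of 33 to pass. At an unadjusted p under 0.05, 7 were higher and 0 lower (21.2%, against 7.13% of all genes). All 7 belong to the class II system, a grouping made after the values were seen. The others were the chain genes H2-Eb1 (1.56 ± 0.22, adjusted p = 0.0525) and H2-Aa (1.31 ± 0.31), the peptide exchange genes H2-DMa (1.27 ± 0.34) and H2-DMb1 (0.72 ± 0.29), the invariant chain gene Cd74 (1.65 ± 0.30) and the class II transactivator gene Ciita (1.84 ± 0.39). The class I genes H2-K1 and H2-D1 had 0.19 ± 0.13 and 0.20 ± 0.11. The list median was 0.10, 0.39 in pair 1 and -0.20 in pair 2.

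Langerhans cells, the antigen-presenting cells of the epidermis, carry class II molecules too. Their defining gene Cd207 stood at 0.285 and 0.248 CPM in control and at 0.441 and 0.343 CPM after imiquimod. Of 14 markers of Langerhans and dendritic cells 9 were tested, 6 with a positive and 3 with a negative value (-1.69 to 1.65). At an unadjusted p under 0.05, 4 were higher and 1 lower (55.6%, against 7.13% of all genes). The 1 to pass after adjustment was H2-Ab1 itself. The summed level of the 9 was 207 and 215 CPM in control and 300.1 and 265 CPM after imiquimod. Most of it was Epcam, which keratinocytes also express (174 and 193 against 219 and 199 CPM). The part of such cells in the class II values was not tested.

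Type I interferon genes had opposite signs in the pairs. None of 31 passed by edgeR and 0 had an unadjusted p under 0.05, while their median was 0.63 in pair 1 and -0.58 in pair 2. Oasl2, an antiviral gene, stood at 4.59 and 11.6 CPM in control and at 10.9 and 5.19 CPM after imiquimod, so that the groups crossed. Plscr1, a scramblase gene known to respond to interferon, stood at 1.22 and 0.881 CPM in control and at 4.04 and 3.63 CPM after imiquimod. Plscr1 rose by 1.89 ± 0.26 (adjusted p = 0.0420), with no overlap.

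The rest of the genes that rose were, like Plscr1, named after their values were seen because they fell outside the naming rule. Cyp7b1, an oxysterol hydroxylase gene, stood at 1.58 and 0.785 CPM in control and at 8.40 and 9.50 CPM after imiquimod (3.01 ± 0.37, adjusted p = 0.0344), although DESeq2 did not call it. Vav1, a signalling gene best known from blood cells, stood at 2.38 and 1.82 CPM in control and at 7.42 and 6.65 CPM after imiquimod. It rose by 1.76 ± 0.24 (adjusted p = 0.0420), and the part of blood cells in this value was not tested. The predicted gene Gm43834 rose by 2.53 ± 0.30 (adjusted p = 0.0385) from 1.66 and 2.45 CPM to 8.47 and 15.7 CPM. The pseudogene Gm8080 rose by 2.89 ± 0.37 (adjusted p = 0.0420) from 1.22 and 1.46 CPM to 8.96 and 11.0 CPM. Vav1, Plscr1 and Cyp7b1 did not pass without the day 30 libraries, and Gm8080 did not pass without a filter on low counts or without the day 6 libraries.

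**Figure D2:**
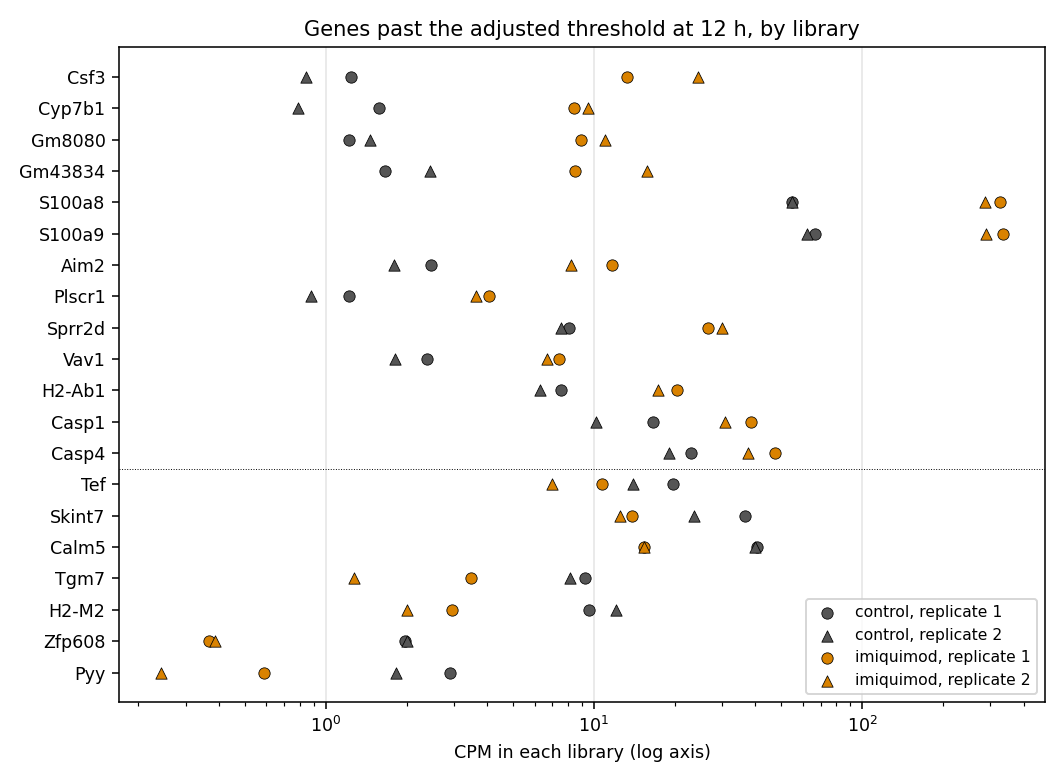
CPM on a log axis in each of the 4 libraries at 12 h for the 20 genes past the adjusted threshold, ordered by log2 change; control is grey, post-imiquimod orange, circles are replicate 1 and triangles replicate 2. The 2 groups do not overlap for any gene shown, as for S100a8 at 54.5 and 54.6 CPM against 326 and 287 CPM.

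An absence of overlap was common among all genes: 20.4% had both post-imiquimod libraries above both controls and 19.8% had both below.

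Among the genes that fell, Calm5 had the smallest p-value. Calm5, a calmodulin-like gene, stood at 40.5 and 39.7 CPM in control and at 15.4 in both post-imiquimod libraries. The groups did not overlap, and Calm5 (ENSMUSG00000099269.2, chromosome 13, 3854173 to 3854761) fell by 1.38 ± 0.12 on the log2 scale (adjusted p = 0.00869).

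Skint7 belongs to a family of epidermal proteins, of which Skint1 selects the γδ T cells that come to reside in the epidermis. It stood at 36.7 and 23.5 CPM in control and at 13.9 and 12.4 CPM after imiquimod, with no overlap. Skint7 (ENSMUSG00000049214.13, chromosome 4, 111972924 to 111988260) fell by 1.15 ± 0.12 (adjusted p = 0.0180). All 11 tested Skint genes had negative values with a median of -0.38, and 1 passed. At an unadjusted p under 0.05 there were 4 (36.4%, against 7.13% of all genes). The other 3 of these were Skint1 (-0.36 ± 0.11), Skint6 (-0.40 ± 0.12) and Skint11 (-0.51 ± 0.22). The median was -0.45 in pair 1 and -0.09 in pair 2.

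Tef encodes a transcription factor driven by the circadian clock. It stood at 19.6 and 14.0 CPM in control and at 10.7 and 6.95 CPM after imiquimod, with no overlap. Tef (ENSMUSG00000022389.14, chromosome 15, 81802673 to 81826863) fell by 0.94 ± 0.11 (adjusted p = 0.0214). Of 21 tested clock genes 1 passed, 19 had a negative value and the median was -0.30. At an unadjusted p under 0.05, 8 were lower and 0 higher (38.1%, against 7.13% of all genes). The repressor genes Cry2 (-0.65 ± 0.14), Per2 (-1.03 ± 0.32) and Ciart (-1.37 ± 0.33) and the output genes Hlf (-0.89 ± 0.28) and Dbp (-1.05 ± 0.43) were among the 8, and the core activator Arntl had -0.11 ± 0.10.

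The remaining genes that fell had lower levels. H2-M2, a nonclassical class I MHC gene, stood at 9.54 and 12.04 CPM in control and at 2.96 and 2.00 CPM after imiquimod. The groups did not overlap, and H2-M2 fell by 2.15 ± 0.27 (adjusted p = 0.0344). Tgm7, a transglutaminase gene, fell by 2.03 ± 0.27 (adjusted p = 0.0385) from 9.28 and 8.14 CPM to 3.48 and 1.27 CPM. The zinc finger gene Zfp608 and the gut peptide gene Pyy lay under the level for naming and were named after their values were seen. Zfp608 fell by 2.39 ± 0.31 (adjusted p = 0.0385) from 1.97 and 2.01 CPM to 0.367 and 0.386 CPM, and it overlaps Gm4221. Pyy fell by 2.58 ± 0.34 (adjusted p = 0.0419) from 2.90 and 1.83 CPM to 0.588 and 0.243 CPM. H2-M2, Tgm7 and Pyy did not pass without the day 30 libraries, and Tgm7 did not pass with only the 4 compared libraries or with both wound times only either.

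The GABA receptor gene Gabbr1, the phosphatase gene Ptpn14 and the kinase gene Nuak1 came next among the lower genes and did not pass. Gabbr1 had -1.06 ± 0.15 (adjusted p = 0.0574). Ptpn14 had -0.84 ± 0.14 (adjusted p = 0.107) at 126 and 139.9 CPM in control against 79.1 and 69.4 CPM after imiquimod. Nuak1 had -1.12 ± 0.19 (adjusted p = 0.122).

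Genes of oxidative phosphorylation and of the proteasome had small values of 1 sign in every member tested. All 48 tested genes of oxidative phosphorylation had positive values, with a median of 0.28 (0.30 in pair 1, 0.26 in pair 2) against 0 for all genes. None passed after adjustment by edgeR, 37 (77.1%, against 7.13% of all genes) had an unadjusted p under 0.05, and without the block 6 did. Ndufa4, a respiratory chain subunit gene, stood at 205 in both controls and at 296 and 275 CPM after imiquimod (0.48 ± 0.10, adjusted p = 0.273). Sdhd, of complex II, had 0.41 ± 0.08 and Uqcrq, of complex III, 0.58 ± 0.14. All 31 tested proteasome genes were positive as well, with a median of 0.18, 13 (41.9%) at an unadjusted p under 0.05 and 0 after adjustment. Psmb4, a core subunit gene, stood at 213 and 218 CPM in control and at 276 and 262 CPM after imiquimod (0.32 ± 0.09).

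The redox genes driven by NRF2 had positive values in 26 of 29, with a median of 0.19. At an unadjusted p under 0.05 there were 6 (20.7%, against 7.13% of all genes). These included the thioredoxin gene Txn1 (0.40 ± 0.12) and the glutathione synthesis gene Gclm (0.42 ± 0.12). Genes of glycolysis and hypoxia had mostly negative values, with 28 of 37 negative and a median of -0.20 (-0.10 in pair 1, -0.32 in pair 2). At an unadjusted p under 0.05, 2 were lower (5.4%). None of either list passed after adjustment by edgeR.

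Cell cycle lists had medians of opposite sign by phase. All 40 tested mitosis genes had negative values, with a median of -0.35. Of these 9 (22.5%, against 7.13% of all genes) had an unadjusted p under 0.05, but 0 passed after adjustment by edgeR. The median was -0.11 in pair 1 and -0.62 in pair 2. Kif11, the spindle motor gene, stood at 32.9 and 28.9 CPM in control and at 23.8 and 17.0 CPM after imiquimod (-0.62 ± 0.19). The proliferation marker gene Mki67 stood at 116 and 103 CPM in control and at 85.1 and 66.0 CPM after imiquimod, without overlap (-0.54 ± 0.19, adjusted p = 0.616). Of 42 tested genes of DNA replication and S phase 34 had positive values, with a median of 0.08 (0.20 in pair 1, -0.03 in pair 2) and 0 at an unadjusted p under 0.05.

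No gene of the Wnt, the TGF-beta and BMP, the migration and matrix or the EGFR ligand list passed after adjustment by edgeR. In that order, 15.4%, 21.9%, 19.2% and 0% of them had an unadjusted p under 0.05, against 7.13% of all genes. Of 39 tested Wnt pathway genes 30 were negative, with a median of -0.19 and 6 lower at an unadjusted p under 0.05, among them the feedback genes Axin2 (-0.38 ± 0.12), Znrf3 (-0.39 ± 0.11) and Rnf43 (-0.36 ± 0.12). Of 32 tested TGF-beta and BMP genes 2 were higher and 5 lower, with the BMP targets Id1 at 0.64 ± 0.14 and Id3 at -0.68 ± 0.14. Of 52 tested genes of migration and matrix 5 were higher and 5 lower. Fn1, the fibronectin gene, stood at 2.64 and 2.41 CPM in control and at 0.661 and 0.444 CPM after imiquimod (-2.23 ± 0.44, adjusted p = 0.242). Hmga2, a chromatin architecture gene, had 2.11 ± 0.51 (adjusted p = 0.380). No gene of the EGFR ligand list had an unadjusted p under 0.05 among 26 tested.

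**Figure D3:**
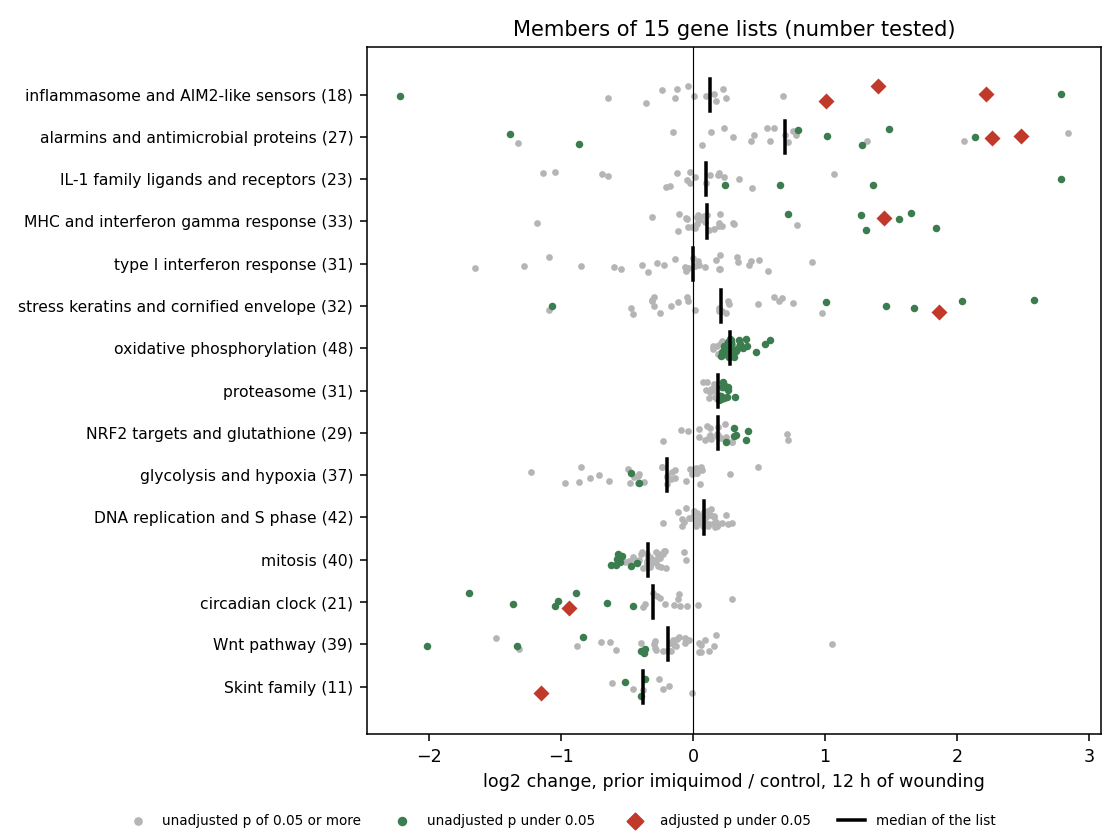
Log2 change at 12 h (x axis) of each tested member of 15 gene lists (y axis, number tested in brackets); grey points have an unadjusted p of 0.05 or more, green points less, red diamonds an adjusted p under 0.05, and black bars are list medians. The members of oxidative phosphorylation (48) and proteasome (31) all lie right of 0, and those of mitosis (40) and the Skint family (11) all lie left of it.

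The same genes were read at the other times, whose libraries are not shared with the 12 h contrast. At 6 h of wounding edgeR called 28 genes (0.162%), 23 higher (0.133%) and 5 lower (0.0289%) after imiquimod. All 20 genes called at 12 h had the same sign at 6 h, where 68.3% of all genes kept theirs, and 11 of the 20 were called there too. S100a8 stood at 6.41 and 24.3 CPM in control and at 141 and 602 CPM after imiquimod at 6 h and rose by 4.55 ± 0.22 (adjusted p = 0.000138). Sprr2d stood at 0.744 and 2.70 CPM in control and at 5.46 and 26.9 CPM after imiquimod and rose by 3.12 ± 0.25 (adjusted p = 0.00363). Both libraries of replicate 2 were higher than their replicate 1 counterparts at 6 h for both genes. Csf3 rose by 3.74 ± 0.39 at 6 h (adjusted p = 0.0170), and Aim2 by 3.61 ± 0.23 (adjusted p = 0.000570).

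H2-Ab1 stood at 5.36 and 4.05 CPM in control and at 6.16 and 5.49 CPM after imiquimod at 6 h and did not pass there (0.31 ± 0.21, adjusted p = 0.585). Skint7 at 6 h had -0.45 ± 0.12 (adjusted p = 0.177), with overlap between 19.3 CPM in control and 23.7 CPM after imiquimod. Among the genes called at 6 h but not at 12 h were Cxcl1 (1.13 ± 0.16 at 6 h) and Lcn2 (1.28 ± 0.15 at 6 h), given above for 12 h. The protease gene Plau, which opens fibrin for migrating cells, had 1.06 ± 0.14 at 6 h and 0.36 ± 0.14 at 12 h.

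Whether the effect differed between the wound times was tested as an interaction. EdgeR called 0 of 17299 genes (0%), with 411 (2.38%) at an unadjusted p under 0.05, and DESeq2 called 3, all with a lower value at 12 h. For S100a8 the 12 h effect was 2.06 below the 6 h effect, written -2.06 (adjusted p = 0.437 by edgeR, 1.1e-06 by DESeq2), and for S100a9 the difference was -2.01 (adjusted p = 0.437 by edgeR, 1.5e-06 by DESeq2). The homeobox gene Hoxa9, named after its value was seen, had -3.23 by DESeq2 (adjusted p = 0.0159).

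In unwounded skin at day 30 edgeR called 5 genes (0.0289%), 4 higher (0.0231%) and 1 lower (0.00578%). Of the 20 genes called at 12 h, 16 had the same sign at day 30, where 48.5% of all genes kept theirs, and Aim2 and Casp1 were called at both times. Aim2 stood at 1.14 and 1.18 CPM in control and at 9.96 and 10.6 CPM after imiquimod at day 30 and rose by 3.15 ± 0.24 (adjusted p = 0.00777). Casp1 stood at 14.4 and 18.3 CPM in control and at 30.7 and 45.7 CPM after imiquimod and rose by 1.21 ± 0.14 (adjusted p = 0.0367). For both genes the groups did not overlap before wounding, at 6 h or at 12 h. Also called higher at day 30 were Runx1, which encodes a transcription factor, and Tmprss11g, which encodes a serine protease. They had 0.45 ± 0.11 and 0.85 ± 0.20 at 12 h without passing.

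S100a8, by contrast, stood at 5.06 and 1.15 CPM in control and at 7.06 and 0.757 CPM after imiquimod at day 30 (0.13 ± 0.26, adjusted p = 0.916), with overlap. Sprr2d was at most 0.354 CPM in the day 30 libraries. Csf3 had no read in the day 30 control libraries and stood at 0.0905 and 0.103 CPM after imiquimod. Skint7 at day 30 was at 111 and 121 CPM in control and at 106 and 123 CPM after imiquimod (-0.02 ± 0.12). H2-Ab1 at day 30 stood at 3.36 and 1.56 CPM in control and at 11.1 and 4.78 CPM after imiquimod and did not pass (1.67 ± 0.23, adjusted p = 0.0961).

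The difference between the 12 h and day 30 effects gave 0 of 17299 genes by edgeR (0%), with 1417 (8.19%) at an unadjusted p under 0.05, and 27 by DESeq2, 11 with a higher and 16 with a lower value at 12 h. By DESeq2 the difference was 2.39 for S100a8 (adjusted p = 3.8e-07) and -1.13 for Skint7 (adjusted p = 0.00109). It was -1.01 for Tef (adjusted p = 0.00142). The sterol synthesis genes Fdft1 (1.13, adjusted p = 9.8e-05), Acat2 (1.26, adjusted p = 0.00196), Mvd (1.50, adjusted p = 0.0147) and Cyp51 (0.98, adjusted p = 0.0480) were among the 11. By edgeR Fdft1 had 1.12 (adjusted p = 0.335). The sterol list as a whole had a median of 0.08 at 12 h, -0.03 in pair 1 and 0.13 in pair 2, and of -0.54 at day 30. With the filter on low counts none of these passed by edgeR, and the day 30 libraries include those with reads of Y-linked genes.

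**Figure D4:**
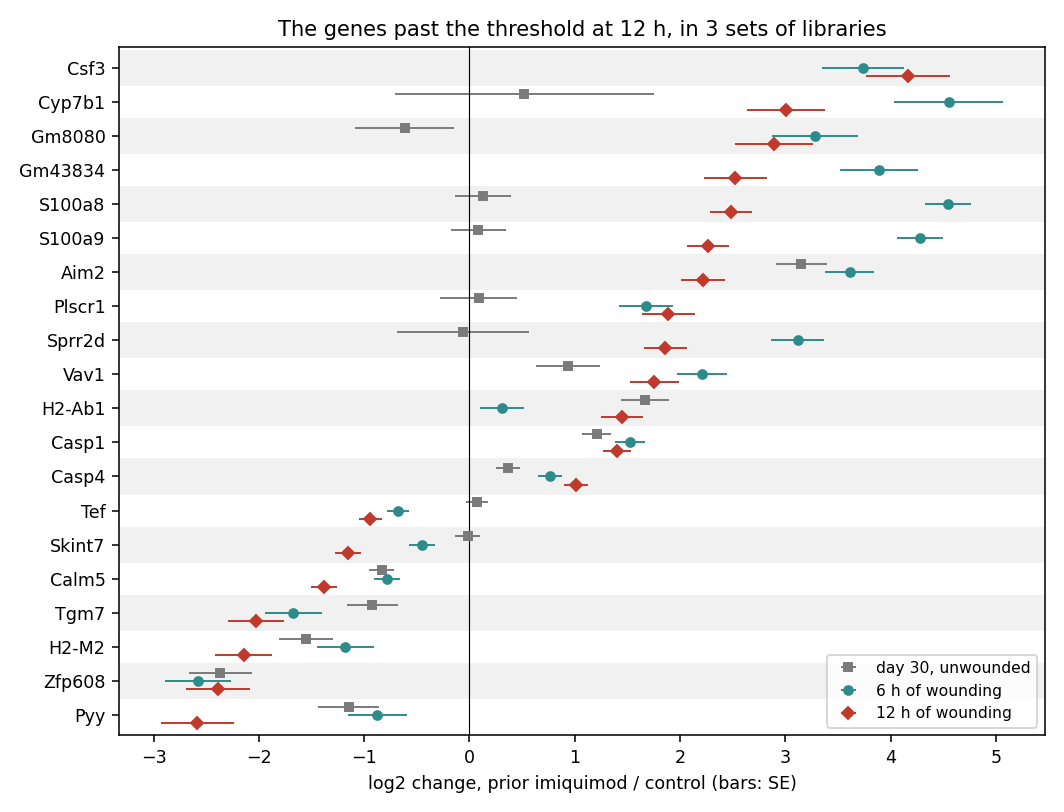
Log2 change after prior imiquimod (x axis, bars are SE) for the 20 genes called at 12 h (y axis), in unwounded skin at day 30 (grey squares), at 6 h (teal circles) and at 12 h of wounding (red diamonds). Aim2 lies at 3.15, 3.61 and 2.22 and S100a8 at 0.13, 4.55 and 2.49; day 30 values of Csf3 and Gm43834 are not drawn, since their controls held no read.

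During treatment, at day 6, imiquimod changed 8462 genes by edgeR (48.9%), 4925 higher (28.5%) and 3537 lower (20.4%). All 20 genes called at 12 h had the same sign at day 6, where 68.6% of all genes kept theirs, and 19 of them were called there, Gm43834 being the exception. Of the 4925 genes higher at day 6, 77.4% had a positive value at 12 h with a median of 0.12. Of the 3537 lower genes, 80.9% had a negative value at 12 h with a median of -0.17. The lists did not all keep their sign, and mitosis genes had a median of 0.98 at day 6 against -0.35 at 12 h. The medians of glycolysis and hypoxia genes were 1.59 and -0.20.

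Wounding without prior imiquimod is given for reference. In control skin, 6 h wounds against day 30 skin gave 7957 genes by edgeR (46%), 4014 higher (23.2%) and 3943 lower (22.8%), in libraries not shared with the 12 h contrast. The block removes the spread between replicates of a time from the error of this comparison across times, so its p-values may be too small. Replicate 1 of the day 30 control is also among the libraries with reads of Y-linked genes. Of the 20 genes 17 had the same sign in that comparison, where 57.7% of all genes kept theirs, and 15 were called, 13 of them with the same sign. S100a8 rose by 2.43 with 6 h of wounding (adjusted p = 8.5e-05), Sprr2d by 2.29 (adjusted p = 0.00272) and Vav1 by 1.73 (adjusted p = 0.00111). Skint7 fell by 2.25 (adjusted p = 1.1e-05) and Calm5 fell by 2.55 (adjusted p = 8.7e-06). Casp1 and Casp4 went against that pattern and fell by 0.78 (adjusted p = 0.00187) and by 0.68 (adjusted p = 0.00136), while Aim2 had 0.10 (adjusted p = 0.799). Without the block, edgeR gave an adjusted p of 0.120 for S100a8 and 0.0982 for Sprr2d in this comparison, so neither passed. Vav1, Skint7, Calm5, Casp1 and Casp4 still passed.

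**Figure D5:**
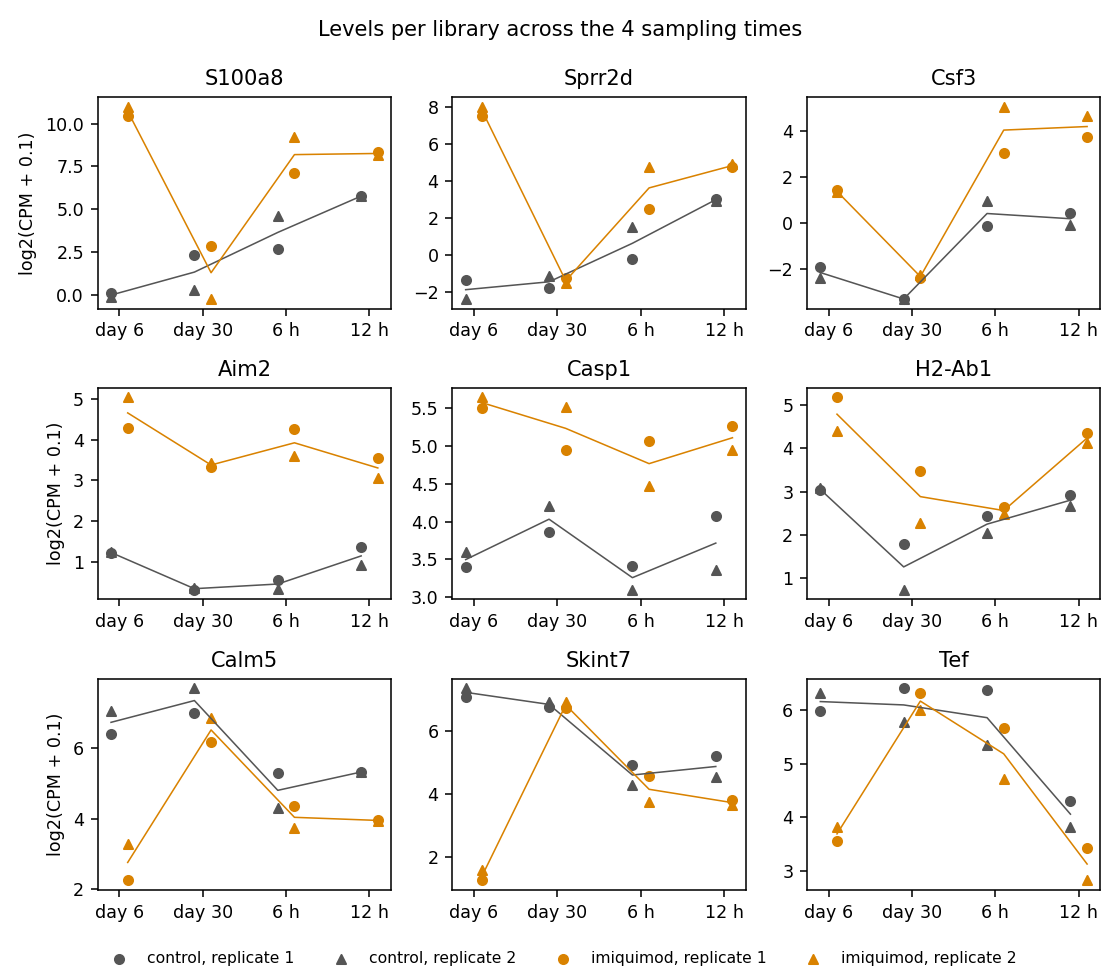
Level in each library, log2(CPM + 0.1), of 9 genes at day 6, day 30, 6 h and 12 h of wounding (x axis); grey is control, orange imiquimod, circles replicate 1, triangles replicate 2, and lines join group means. Aim2 and Casp1 are separated at all 4 times, whereas S100a8 stands at 5.06 and 1.15 CPM in control and 7.06 and 0.757 CPM after imiquimod at day 30 and separates again after wounding.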

How the data were processed

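Mouse epidermal stem cells were profiled by RNA-seq in 16 libraries, 8 groups of 2. The deposited files hold counts per gene, made by the authors with alignment to mm10, and the submitters' processing notes name STAR, with no version given in the sources used here. Strand settings are not given, and ATAC-seq files were not used here. Of 47729 gene IDs 47224 matched a symbol, and IDs without one took at most 0.0454% of counts at 12 h.

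Counts were fitted with edgeR 4.0.16 in R 4.3.3 (TMM, filterByExpr by group, robust quasi-likelihood F test, two-sided) over all 16 libraries, with 8 group means and replicate number as a block within each time, leaving 4 residual degrees of freedom. P-values were adjusted by Benjamini-Hochberg over 17299 genes, threshold 0.05. CPM are counts per 1000000 after TMM scaling. The script was tested on simulated data. Alternatives were no block, RLE scaling, no filter, DESeq2 1.42.0, each 12 h library left out, and fits on fewer libraries.

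The naming rule took up to 15 called genes per direction by size of change, required non-overlapping groups and a mean log2 CPM of 2 or more, filled to 8 by smallest p, plus a panel of keratin, inflammatory and cycle genes and up to 4 past the threshold per list. Predicted genes and pseudogenes were left out. List members that are named without passing were picked after their values were seen. The members and lists were chosen with earlier results of these data known, and no list was tested as a set.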

Additional observations from a re-analysis of the deposited data

How the results depend on the processing

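The count of genes called at 12 h was 20 as reported, 0 with no replicate block, 79 with no filter on low counts, 94 with DESeq2, 91 with only the 4 compared libraries, and, as fits added after seeing the data, 39 without the day 6 libraries and 88 with both wound times only. Leaving out 1 of the 12 h libraries gave 0 to 2 genes, the 2 (Csf3 and Tgm7) without control replicate 1. RLE normalization gave 21 genes. With the day 30 libraries left out 17 genes were called, and 13 of the 20 were kept. The 12 h effect minus the day 30 effect gave 18 genes with no filter on low counts and 27 with DESeq2, and the 12 h effect minus the 6 h effect gave 3 with DESeq2, against 0 reported for each. The cause was not tested.

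The labels do not say what a replicate number marks. With only 2 pairs per time the pairing rests on the number alone. Deviations from group means correlated across genes between the same numbers of control and imiquimod libraries at r = 0.323 at 12 h, and between -0.251 and 0.0733 across times. Without the block the smallest adjusted p at 12 h was 0.0629, for Aim2 and Zfp608.

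Among named genes that did not pass, signs turned when 1 library was left out for Il1b (-1.55 to 0.0837), Krt10 (-0.416 to 0.128), Il1a (-0.467 to 0.203), Fosl1 (-0.537 to 0.299), Mx1 (-2.42 to 0.163) and Krt5 (-0.103 to 0.125). Krt5 also had -0.000878 in the 4 compared libraries and -0.000712 in both wound times only. The first 4 and Krt5 turned without replicate 1 of either group, and Mx1 without replicate 2.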
